A study of Homo sapiens with 9 samples.

Results

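The 43 genes described here encode proteins of homologous recombination and of the Fanconi anemia pathway. They were chosen as a list of gene symbols with earlier results of these data known. Counts of them describe the list and do not test it. The genes were read from the deposited table of 60662 genes. All 43 were found there and passed the filter on low counts in every comparison. RNA-seq covered 9 libraries of SET2, a *JAK2*-mutant megakaryoblastic leukemia cell line that the labels describe as Post MPN AML, without treatment: WT cells (n = 3), *DYRK1A* KO clone 11H1 (n = 3) and *DYRK1A* KO clone 14B5 (n = 3). Each clone grew from a single sorted cell after nucleofection with a Cas9 ribonucleoprotein and was kept because it carried out-of-frame indels only. All 3 groups share the *JAK2* mutation and the rest of the SET2 background. No clone grown from an unedited cell was sequenced, so the effect of the edit and the differences between any single cell and the parental line cannot be told apart. The labels do not say whether the 3 libraries of a group came from separate cultures, and p values measure only the spread between these libraries.

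Homologous recombination repairs a broken DNA duplex by copying the sister chromatid. Nucleases cut back the ends, BRCA proteins help a protein filament to form on the exposed strand, further factors and motor proteins help the strand to invade the sister, and the joined molecules are then separated by dissolution or by cutting. The Fanconi pathway recognises a crosslink between the strands: its core complex attaches ubiquitin to the FANCD2–FANCI pair, and repair then passes through the same recombination steps. POLQ, polymerase theta, joins ends through short repeats when recombination is not used. Many of these genes are transcribed mostly in S and G2 phase and are known targets of E2F factors and of the DREAM complex, a repressor that DYRK1A helps to assemble. The comparisons ask how each gene differed in the KO clones, and whether the steps of the pathway moved alike.

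Library totals ran from 32347779 to 60272245 expected counts. Between 7.23% and 7.39% of counts in 11H1 came from mitochondrial genes, against 3.30% to 3.92% in 14B5 and 3.54% to 6.03% in WT, and the part of this difference in the results was not tested. *DYRK1A* itself was at 197, 196 and 218 CPM in WT (counts scaled by TMM library size), 188, 191 and 192 in 11H1, and 191, 182 and 174 in 14B5. Its log2 fold change (log2FC) was −0.09 in 11H1 (adjusted p = 0.131, edgeR) and −0.17 in 14B5 (adjusted p = 0.0278). An edit that only shifts the frame is not checked by its RNA level. Of 13 megakaryocyte and erythroid markers, 12 were above 1 CPM on average in WT, 11 in 11H1 and 10 in 14B5. *PF4* was under 1 CPM already in WT (0.461 to 0.559) and at 0 in all 6 KO libraries. *GP1BB* was at 0.834 to 1.38 CPM in WT, 0.0209 to 1.21 in 11H1 and 0.335 to 0.843 in 14B5. For *GP9* these ranges were 20.2 to 24.4, 3.76 to 4.81 and 0.574 to 1 CPM. Their summed level was 2750 to 2820 CPM in WT, 2310 to 2430 in 11H1 and 2430 to 2460 in 14B5. In 11H1 versus WT, 9 of the 13 (69.2%) were lower and 2 (15.4%) higher at an adjusted p under 0.05 (edgeR). Of all genes tested, 32.8% were lower and 31.8% higher. In 14B5 versus WT, 8 (61.5%) were lower and 3 (23.1%) higher, against 28.7% and 24.9% of all genes. The median log2FC of the markers was −0.49 in 11H1 and −0.62 in 14B5. Lymphoid markers summed to 39.7 to 44.0 CPM in WT, 30.5 to 30.9 in 11H1 and 29.5 to 32.9 in 14B5. Stromal and epithelial markers summed to 15.7 to 19.4, 28.5 to 31.3 and 34.3 to 36.3 CPM. Among these, *CDH1* was at 5.12 to 6.56 CPM in WT, 21.3 to 24.6 in 11H1 and 32.9 to 34.6 in 14B5. *CDH5* went the other way, at 7.65 to 9.72, 3.35 to 4.23 and 0.0669 to 0.191 CPM.

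Most of the genes were higher in each clone. In 11H1 versus WT, 32 of the 43 (74.4%) were higher and 2 were lower at an adjusted p under 0.05, where 31.8% of all 16675 genes tested were higher and 32.8% were lower. The median log2FC of the 43 genes was 0.33, and that of all genes tested was −0.00656. In 14B5 versus WT, 33 (76.7%) were higher and 1 was lower, against 24.9% and 28.7% of 16537 genes, with a median of 0.26 beside −0.0137 for all genes. The clones thus had close counts, while the genes behind the counts were in part different. Higher in both clones were 26 genes (14.1% of all genes tested in both were), higher only in 11H1 past the threshold were 6, and higher only in 14B5 were 7. *RAD50* alone was lower in both (19.2% of all genes), *RAD51B* was lower in 11H1, and no member was called in opposite directions (5.8% of all genes). *FANCC* and *RAD54B* passed the threshold in neither clone. These comparisons share the WT libraries.

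**Figure D1:**
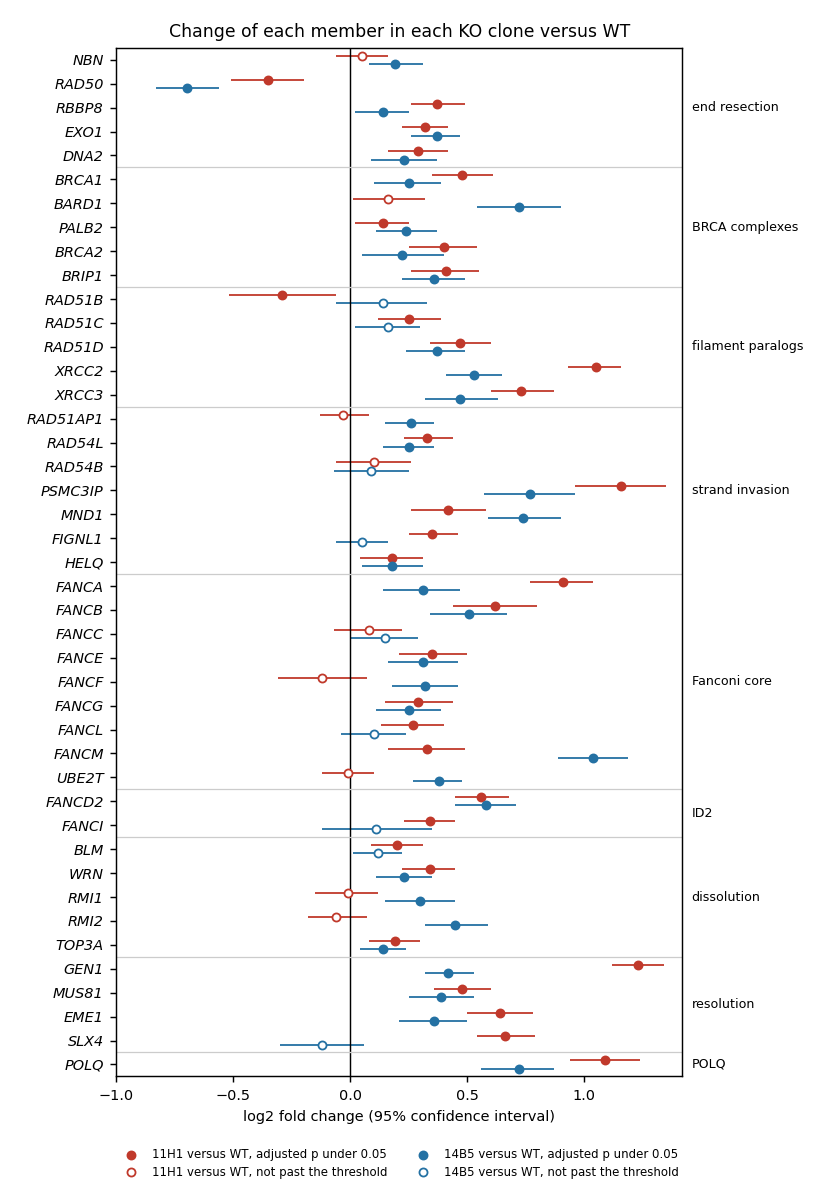
log2FC of each of the 43 genes versus WT with its 95% confidence interval, in 11H1 (red) and 14B5 (blue), grouped by step; filled points passed an adjusted p of 0.05 in edgeR. Most points lie to the right of 0, *RAD50* lies to the left in both clones, and *GEN1*, *SLX4*, *FANCM* and *BARD1* are far apart between the clones.

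With both clones taken as KO (n = 6) against WT, 27 genes were higher and 1 was lower, where 14.3% of 17080 genes were higher and 17.7% were lower. The 6 KO libraries were counted as separate replicates, though 3 came from each clone. The median log2FC was 0.29 beside 0.022 for all genes. All 6 KO libraries lay above all 3 WT libraries for 29 of the 43 (16.3% of all genes) and below them for *RAD50* only (20.3% of all genes). The count of 27 fell to 16, 18 and 19 when WT library 1, 2 or 3 was left out. Calls over all genes, in either direction, were then 3739, 3677 and 4043, beside 2449 higher and 3022 lower with all libraries.

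Promoters were examined for the letters that E2F and related factors are known to bind. Promoter windows from RefSeq (GRCh38.p14, from 250 bases before to 50 after the start) were available for 37 of the 43, with 50 windows in all, since some genes have several starts. The windows were searched on both strands for TTCCCGC, for the related run TTGGCGC, for the related run TTCGCGC and for the related run TTGCCGC, all of which fit the E2F consensus. At least 1 of these stood in 28 of the 50 windows (56.0%), against 13.0% of all 35116 windows and 16.1% of the 22198 windows of coding genes. Counted by gene, 24 of the 37 (64.9%) had a match in at least 1 window, against 15.3% of all 27305 genes and 20.5% of 15842 coding genes. In the 250 bases before the start alone, 13 of the 37 (35.1%) had one, against 13.0% and 17.5%. The letters CCAAT, bound by NF-Y, stood in 19 of the 50 windows (38.0%, against 34.6%), and TTTGAA or TTCGAA, which fit the CHR element of cell cycle genes, in 7 (14.0%, against 16.4%). CCAAT can share bases with an E2F match read on the other strand. A match is a run of letters and not a measured binding site. The 24 genes with an E2F match had a median log2FC of 0.38 in 11H1 and 0.34 in 14B5, and the 13 without had 0.33 and 0.18. Of the 24, 19 were higher in 11H1 and 21 in 14B5, and 0 were lower. Of the 13, 10 were higher and 2 lower in 11H1, and 8 were higher and 1 lower in 14B5. Of all genes tested, 31.8% were higher in 11H1 and 24.9% in 14B5. Most genes without a match thus rose too, *FANCM* among them.

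The 250 bases before the start are shown for *FANCA* (chr16:89816648-89816897, minus strand) and *RAD54L* (chr1:46247438-46247687, plus strand), which were higher in both clones and hold both kinds of match, and for *RAD50* (chr5:132556727-132556976, plus strand), which was lower in both and holds none; each runs 5′ to 3′ on the strand of the gene, with the E2F and CCAAT matches in capitals.
FANCA: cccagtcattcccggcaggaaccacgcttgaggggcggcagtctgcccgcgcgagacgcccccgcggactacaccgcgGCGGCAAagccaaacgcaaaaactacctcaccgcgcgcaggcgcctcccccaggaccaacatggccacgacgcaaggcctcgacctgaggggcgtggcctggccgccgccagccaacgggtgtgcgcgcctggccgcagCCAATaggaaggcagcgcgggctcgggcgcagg
RAD54L: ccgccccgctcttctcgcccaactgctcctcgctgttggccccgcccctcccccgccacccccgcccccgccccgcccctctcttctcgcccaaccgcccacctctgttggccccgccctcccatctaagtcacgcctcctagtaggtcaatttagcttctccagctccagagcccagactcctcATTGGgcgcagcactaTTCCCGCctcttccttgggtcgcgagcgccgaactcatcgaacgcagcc
RAD50: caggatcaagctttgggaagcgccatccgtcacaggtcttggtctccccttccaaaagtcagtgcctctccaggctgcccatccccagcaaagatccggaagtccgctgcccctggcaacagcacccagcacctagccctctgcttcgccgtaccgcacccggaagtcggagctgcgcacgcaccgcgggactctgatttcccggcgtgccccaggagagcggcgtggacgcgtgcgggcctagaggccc

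End resection holds the gene that fell in both clones. *RAD50*, the ATPase of the complex that holds broken ends, was at 34.2, 34.6 and 38.6 CPM in WT, 27.4, 25.8 and 30.5 in 11H1, and 22.1, 21.8 and 23.1 in 14B5. The 3 groups did not overlap, and the order was WT, 11H1, 14B5. Its log2FC was −0.35 ± 0.0697 (SE) in 11H1 (adjusted p = 0.00078, edgeR) and −0.70 ± 0.0594 in 14B5 (adjusted p = 5.92e-06). *RAD50* (chr5:132556019-132646344) shares 79.7% of its exon bases with AC116366.3, a gene of the same strand in the annotation, and its counts were not whole numbers in any library because reads were divided. AC116366.3 was at 0.32 to 1.3 CPM in WT and 0.954 to 4.67 CPM in the KO libraries. The sum of both was 34.7 to 39.9 CPM in WT, 29.6 to 31.4 in 11H1 and 25.6 to 26.4 in 14B5, so the groups stayed apart, with mean log2 differences of −0.25 and −0.48.

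*NBN*, which binds the RAD50 complex and recruits the ATM kinase, did not fall with it. It was at 107, 111 and 120 CPM in WT, 116, 114 and 119 in 11H1, and 133, 131 and 127 in 14B5, and passed the threshold in 14B5 only (log2FC 0.19, adjusted p = 0.0101, edgeR). *RBBP8*, which encodes the resection factor CtIP, had the largest rise of this step in 11H1. Its levels were 30.3, 29.1 and 30.7 CPM in WT, 39.8, 36.9 and 39.3 in 11H1, and 32, 34.7 and 33.2 in 14B5. The log2FC was 0.37 ± 0.0531 in 11H1 (adjusted p = 6.57e-05, edgeR) and 0.14 ± 0.0514 in 14B5 (adjusted p = 0.0472), and 11H1 was higher than 14B5 by 0.22 (adjusted p = 0.00259). The rise in 14B5 did not hold under several other settings, among them limma-voom (adjusted p = 0.0526). The nucleases *EXO1* (0.32 and 0.37) and *DNA2* (0.29 and 0.23) rose in 11H1 and in 14B5.

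The genes of the BRCA complexes rose, with *BRCA1* and its partner *BARD1* led by different clones. *BRCA1* was at 75.7, 76.5 and 85.1 CPM in WT, 113, 103 and 113 in 11H1, and 88.3, 102 and 94.3 in 14B5. Its log2FC was 0.48 ± 0.0586 in 11H1 (adjusted p = 1.88e-05, edgeR) and 0.25 ± 0.0644 in 14B5 (adjusted p = 0.00893), and 11H1 exceeded 14B5 by 0.22 (adjusted p = 0.00641). AC060780.1, a gene of the same strand that shares 1.31% of its exon bases, changed by −1.09 and −2.07. *BARD1*, whose product forms the ubiquitin ligase with BRCA1, showed the opposite order. It was at 17.0, 19.5 and 20.2 CPM in WT, 20.9, 21.6 and 20.7 in 11H1, and 32.7, 33.1 and 28.5 in 14B5. The log2FC was 0.16 ± 0.0699 in 11H1, short of the threshold (adjusted p = 0.0589, edgeR), and 0.72 ± 0.0799 in 14B5 (adjusted p = 3.98e-05), and 11H1 was lower than 14B5 by 0.57 on the log2 scale (log2FC −0.57, adjusted p = 9.48e-06). The helicase *BRIP1* rose in 11H1 and 14B5 (0.41 and 0.36). *BRCA2*, a mediator of strand invasion, rose by 0.40 and 0.22, and *PALB2*, which ties it to BRCA1, by 0.14 and 0.24. The call of *BRCA2* in 14B5 and that of *PALB2* in 11H1 were lost in several settings, for example without 14B5 library 1 for *BRCA2* (adjusted p = 0.101, edgeR) and without 11H1 library 1 for *PALB2* (adjusted p = 0.14).

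Among the filament paralogs (*RAD51B*, *RAD51C*, *RAD51D*, *XRCC2* and *XRCC3*), which stabilise the filament on the exposed strand, *XRCC2* had the largest change in each clone. It was at 17.6, 17.4 and 17.6 CPM in WT, 36.9, 35.2 and 36.0 in 11H1, and 25.3, 26.7 and 24.9 in 14B5. The groups were far apart beside the spread within each, and 11H1 exceeded 14B5 by 0.50 (adjusted p = 4.13e-06, edgeR). The log2FC was 1.05 ± 0.0529 in 11H1 (adjusted p = 1.22e-08, edgeR) and 0.53 ± 0.0535 in 14B5 (adjusted p = 1.97e-05).

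*XRCC3* was at 30.3, 30.3 and 26.4 CPM in WT, 46.8, 49.6 and 47.9 in 11H1, and 38.0, 41.4 and 42.7 in 14B5, again with 11H1 highest. Its exons overlap those of *KLC1* on the other strand over 76.7% of their bases, and *KLC1* changed by 0.30 in 11H1 and 0.14 in 14B5. *RAD51D* was at 23.1, 20.9 and 21.3 CPM in WT, 30.5, 29.1 and 30.6 in 11H1, and 28.1, 28.3 and 28.8 in 14B5, a log2FC of 0.47 and 0.37. *RAD51C*, at 35.4, 34.0 and 31.1 CPM in WT, 37.5, 40.3 and 41.7 in 11H1, and 37.0, 36.7 and 40.2 in 14B5, rose in 11H1 (0.25, adjusted p = 0.00359, edgeR) and was at 0.16 in 14B5 (adjusted p = 0.0504). *RAD51B* was the paralog that rose in neither clone. It was the least abundant member per length (0.944 CPM per kb of exon in WT), at 7.18, 6.37 and 7.63 CPM in WT, 5.12, 5.97 and 6.29 in 11H1, and 7.83, 7.96 and 7.74 in 14B5. It fell by 0.29 on the log2 scale in 11H1 (adjusted p = 0.0318, edgeR), a call that was lost without 11H1 library 1 (adjusted p = 0.157), without 11H1 library 2 and without WT library 1 or 3. The clones differed in it by −0.44 (11H1 minus 14B5, adjusted p = 0.00121).

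In the group of strand invasion, *PSMC3IP* (HOP2) and *MND1*, which form a heterodimer that stimulates strand invasion, rose more than the other 5 genes. *PSMC3IP* was at 9.01, 8.43 and 7.31 CPM in WT, 18.8, 17.1 and 19.1 in 11H1, and 13.7, 14.2 and 14.8 in 14B5. *MND1* was at 9.90, 9.62 and 9.01 CPM in WT, 12.8, 13.1 and 12.2 in 11H1, and 15.6, 15.9 and 16.8 in 14B5. The order of the clones was thus reversed between these partners: *PSMC3IP* in 11H1 exceeded that in 14B5 by 0.37 (adjusted p = 0.000287, edgeR) and *MND1* was lower by 0.34 on the log2 scale (log2FC −0.34, adjusted p = 0.000465). Versus WT the log2FC of *PSMC3IP* was 1.16 ± 0.0881 in 11H1 (adjusted p = 3.73e-07, edgeR) and 0.77 ± 0.0875 in 14B5 (adjusted p = 4.77e-05). The exons of *PSMC3IP* overlap *MLX* on the other strand over 29.9% of their bases, and *MLX* changed by 0.33 and 0.32.

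The motor protein *RAD54L* rose in both clones (0.33 and 0.25), and so did the helicase *HELQ* (0.18 in each, with adjusted p of 0.0241 and 0.0258 in edgeR, lost in several settings). *FIGNL1*, an ATPase that takes the filament apart, rose only past the threshold of 11H1 (0.35; 0.05 in 14B5), and the clones differed by 0.29 (adjusted p = 0.000121, edgeR). *RAD51AP1*, which aids strand invasion, had the reverse pattern, at −0.03 in 11H1 and 0.26 in 14B5, with a difference of −0.30 (adjusted p = 6.47e-05, edgeR). *RAD54B* was at 0.10 and 0.09 (adjusted p = 0.27 and 0.298, edgeR). It shares 59.1% of its exon bases with *FSBP*, a gene of the same strand that fell by 0.48 and 0.55 on the log2 scale, and its counts were not whole in any library. The sum of both was 34.1 to 37.8 CPM in WT, 31.2 to 33.2 in 11H1 and 31.1 to 33.3 in 14B5, so all KO libraries were below WT for the sum, with mean log2 differences of −0.17 and −0.18, opposite in sign to *RAD54B* alone.

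**Figure D2:**
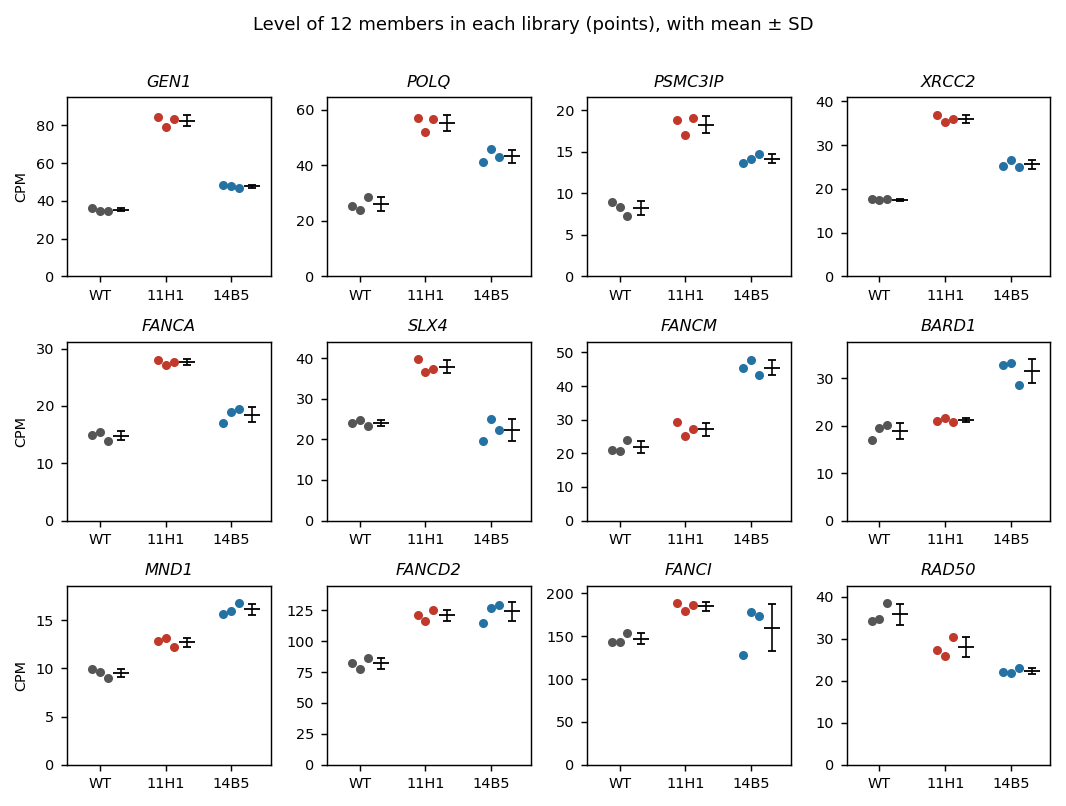
Level of 12 of the genes in each library in CPM, on axes that start at 0, with the 3 libraries of each group as points and the mean ± SD (n = 3) beside them. *GEN1* is at 79.1 to 84.7 CPM in 11H1 against 34.7 to 36.2 in WT, *FANCM* is highest in 14B5, *RAD50* falls from WT to 11H1 to 14B5, and 1 library of 14B5 stands below the rest for *FANCI*.

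The Fanconi core complex was led by a different gene in each clone. *FANCA*, which holds a subcomplex of the core, was at 14.9, 15.5 and 13.9 CPM in WT, 28.1, 27.1 and 27.7 in 11H1, and 17.0, 19.0 and 19.5 in 14B5. All KO libraries were above WT, with 11H1 well above 14B5 (difference 0.59, adjusted p = 5.33e-06, edgeR). The log2FC was 0.91 ± 0.0615 in 11H1 (adjusted p = 1.38e-07, edgeR) and 0.31 ± 0.0727 in 14B5 (adjusted p = 0.00518). *ZNF276*, which overlaps 23.6% of its exon bases on the other strand, changed by 1.02 in 11H1 and 0.11 in 14B5.

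*FANCM*, the DNA translocase that anchors the core at the crosslink, was at 21.0, 20.6 and 24.1 CPM in WT, 29.2, 25.3 and 27.1 in 11H1, and 45.5, 47.9 and 43.3 in 14B5. It had the largest rise of all 43 genes in 14B5, 1.04 ± 0.0681 (adjusted p = 8.87e-07, edgeR), beside 0.33 ± 0.075 in 11H1 (adjusted p = 0.00226), and the difference between the clones was −0.73 (adjusted p = 1.02e-06). *FANCB* (0.62 and 0.51), *FANCE* (0.35 and 0.31) and *FANCG* (0.29 and 0.25), structural subunits of the core, rose in both clones, and none of the 3 differed between the clones past the threshold (adjusted p of 0.232, 0.673 and 0.716 in edgeR). The 95% intervals of 11H1 minus 14B5 ran from −0.05 to 0.25, from −0.09 to 0.15 and from −0.10 to 0.15.

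The enzymes that attach the ubiquitin were past the threshold in different clones. *FANCL*, the ligase, rose in 11H1 (0.27, adjusted p = 0.00216, edgeR) and was at 0.10 in 14B5 (adjusted p = 0.19). *UBE2T*, its conjugating enzyme and the most abundant member per length in WT (29.3 CPM per kb of exon), was at −0.01 in 11H1 (adjusted p = 0.849) and rose in 14B5 (0.38, adjusted p = 8.04e-05). Between the clones *UBE2T* differed by −0.41 (adjusted p = 1.22e-05, edgeR) and *FANCL* by 0.15 (adjusted p = 0.026), a call that *FANCL* kept in 9 of 13 other settings (highest adjusted p = 0.124, without 14B5 library 2). *FANCF*, an adaptor of the core, was at −0.12 in 11H1 and rose by 0.32 in 14B5 (difference −0.46, adjusted p = 0.000221, edgeR). *FANCC* was at 0.08 (adjusted p = 0.345, edgeR) and 0.15 (adjusted p = 0.0772), with all libraries of each clone above WT by small amounts.

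The substrates of the core, *FANCD2* and *FANCI*, rose unequally. *FANCD2* was at 82.4, 77.7 and 86.1 CPM in WT, 121, 116 and 125 in 11H1, and 115, 127 and 129 in 14B5. Its log2FC was 0.56 ± 0.0515 in 11H1 (adjusted p = 1.68e-06, edgeR) and 0.58 ± 0.0576 in 14B5 (adjusted p = 1.82e-05). The difference between the clones was −0.03 (95% interval −0.14 to 0.08). *FANCI* was at 143, 143 and 154 CPM in WT, 189, 179 and 187 in 11H1, and 128, 178 and 174 in 14B5. It rose in 11H1 (0.34 ± 0.0487, adjusted p = 6.8e-05, edgeR), whereas in 14B5 library 1 lay below WT while the other two lay above. With that library *FANCI* was at 0.11 ± 0.105 in 14B5 (adjusted p = 0.394, edgeR), and without it at 0.26 (adjusted p = 0.00448). *POLG*, which overlaps the end of *FANCI* on the other strand over 5.90% of its exon bases, was also low in that library, at 90.6 CPM against 121 and 127 in 14B5 libraries 2 and 3, 120 to 128 in 11H1 and 133 to 137 in WT.

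Dissolution separates joined molecules without a cut, through the BLM helicase, the topoisomerase TOP3A and the RMI proteins. Of the steps with more than 2 genes, this one had the lowest median log2FC in 11H1 (0.19), while in 14B5 its median (0.23) was above that of end resection (0.19). *WRN*, a related helicase, led it in 11H1, at 65.1, 62.4 and 70.3 CPM in WT, 83.8, 80.4 and 84.1 in 11H1, and 79.4, 78.4 and 76.5 in 14B5 (log2FC 0.34, adjusted p = 0.000138, and 0.23, adjusted p = 0.00445, edgeR). *RMI2* led it in 14B5. It was at 40.7, 43.1 and 45 CPM in WT, 38.7, 43.1 and 41.6 in 11H1, and 63.6, 56.1 and 58.3 in 14B5, so that 11H1 overlapped WT and 14B5 lay above both. Its log2FC was −0.06 in 11H1 (adjusted p = 0.392, edgeR) and 0.45 ± 0.0609 in 14B5 (adjusted p = 0.000153), with a difference of −0.52 between the clones (adjusted p = 9.91e-06). *RMI1* had the same order as its partner, at −0.01 in 11H1 and 0.30 in 14B5, with a difference of −0.33 (adjusted p = 3e-04, edgeR). *BLM* rose in 11H1 (0.20, adjusted p = 0.0041, edgeR) and was at 0.12 in 14B5 (adjusted p = 0.0705), and *TOP3A* rose by 0.19 and 0.14, the latter lost in several settings, among them without WT library 1 (adjusted p = 0.0886).

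Resolution, in which nucleases cut the joined molecules, had the highest median change in 11H1 of the steps with more than 2 genes, 0.65. In 14B5 its median was 0.37, the same as that of the filament paralogs. *GEN1*, the resolvase that cuts symmetrically, was at 36.2, 34.7 and 34.9 CPM in WT, 84.7, 79.1 and 83.2 in 11H1, and 48.5, 48.1 and 46.8 in 14B5. This was the largest change of the 43 genes in 11H1, 1.23 ± 0.0497 or 2.35-fold (adjusted p = 2.12e-09, edgeR). In 14B5 it was 0.42 ± 0.047 (adjusted p = 4.02e-05, edgeR), and the clones differed by 0.79 (adjusted p = 5.9e-08).

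*SLX4*, the scaffold that holds several nucleases, was at 24.1, 24.8 and 23.3 CPM in WT, 39.8, 36.7 and 37.3 in 11H1, and 19.7, 25.1 and 22.2 in 14B5. It rose in 11H1 (0.66 ± 0.0563, adjusted p = 9.04e-07, edgeR), while 14B5 overlapped WT (−0.12 ± 0.0815, adjusted p = 0.232). Without 14B5 library 2 the change in 14B5 was −0.20 (adjusted p = 0.0486, edgeR). The difference between the clones was 0.77 (adjusted p = 3.84e-06). The nuclease *MUS81* rose in both (0.48 and 0.39, difference 0.07, 95% interval −0.04 to 0.19), and its partner *EME1* rose more in 11H1 (0.64 and 0.36, difference 0.27, adjusted p = 0.000345, edgeR).

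*POLQ* stands for the competing route of end joining and rose as well. It was at 25.5, 23.9 and 28.6 CPM in WT, 56.9, 51.9 and 56.6 in 11H1, and 41.1, 45.7 and 42.8 in 14B5. The 3 groups did not overlap. The log2FC was 1.09 ± 0.0683 in 11H1 (adjusted p = 7.17e-08, edgeR) and 0.72 ± 0.0703 in 14B5 (adjusted p = 1.64e-05), and 11H1 exceeded 14B5 by 0.36 (adjusted p = 0.000125).

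**Figure D3:**
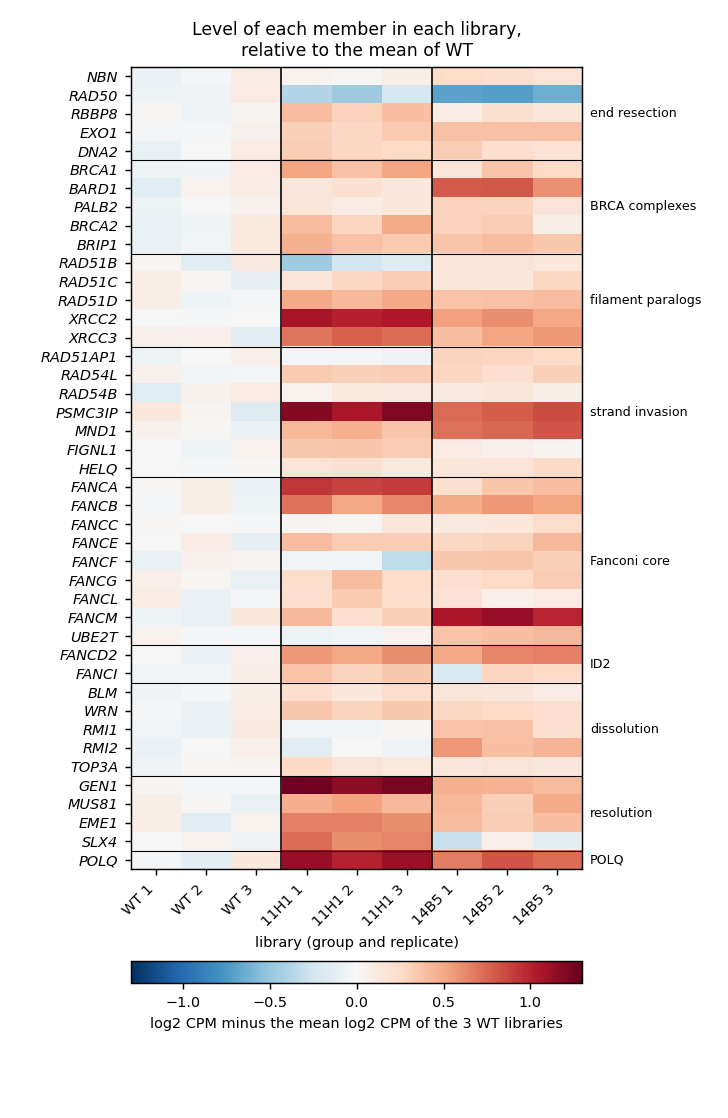
log2 CPM of each gene (rows, by step) in each of the 9 libraries (columns), minus the mean of the 3 WT libraries; red is above and blue below that mean. The clones share the red of *PSMC3IP*, *POLQ* and *FANCD2* and the blue of *RAD50*, and they part at *BARD1*, *FANCM*, *RMI2* and *SLX4*.

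Set against each other, the clones differed in 23 of the 43 genes. Of these, 13 were higher in 11H1 (30.2%, where 31.6% of 16352 genes were) and 10 were higher in 14B5 (23.3%, where 32.1% were), shares that are close to or under those of all genes. The median log2FC was 0.07 beside −0.0044 for all genes. By step, 3 of the 4 resolution genes were higher in 11H1, and 2 of the 5 dissolution genes, both RMI proteins, were higher in 14B5. The summed level of the 43 genes was 1600 to 1680 CPM in WT, 2030 to 2090 in 11H1 and 1950 to 2030 in 14B5.

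The ratio of partner genes within a library, which does not depend on scaling, was compared for 10 pairs whose products bind or work together. In 4 pairs the 6 KO libraries did not overlap WT. Of all single genes tested, 16.3% lay wholly above WT and 20.3% wholly below. The share among ratios of other gene pairs was not computed. The log2 ratio of *RAD51C* to *XRCC3* was 0.23, 0.16 and 0.24 in WT, −0.32, −0.30 and −0.20 in 11H1, and −0.04, −0.17 and −0.09 in 14B5. The difference KO minus WT was −0.40 (exact permutation p = 0.0119 over 84 splits, 2-sided, the smallest possible; 0.0595 adjusted over 10 pairs). The ratio of *RAD51D* to *XRCC2* differed by −0.37, that of *RAD50* to *NBN* by −0.65, and that of *FANCD2* to *FANCI* by 0.35 (adjusted p = 0.0595 in each of these exact permutation tests). No pair passed an adjusted p of 0.05. The test shuffled the 6 KO libraries as if independent, though they came from only 2 clones. Its p values do not measure the spread between clones.

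In other pairs the clones took opposite sides of WT. The log2 ratio of *BRCA1* to *BARD1* was 1.97 to 2.15 in WT, 2.26 to 2.45 in 11H1 and 1.43 to 1.72 in 14B5. That of *UBE2T* to *FANCL* was 0.73 to 0.83 in WT, 0.40 to 0.60 in 11H1 and 0.96 to 1.10 in 14B5. The ratio of *PSMC3IP* to *MND1* was −0.30 to −0.14 in WT, 0.39 to 0.65 in 11H1 and −0.19 to −0.17 in 14B5, and that of *BRCA2* to *PALB2* was also above WT in 11H1 only. For 3 libraries against 3, the exact permutation test cannot go below 0.1, and these separations are given as values. *MUS81* to *EME1* and *RMI1* to *RMI2* overlapped WT in both clones.

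**Figure D4:**
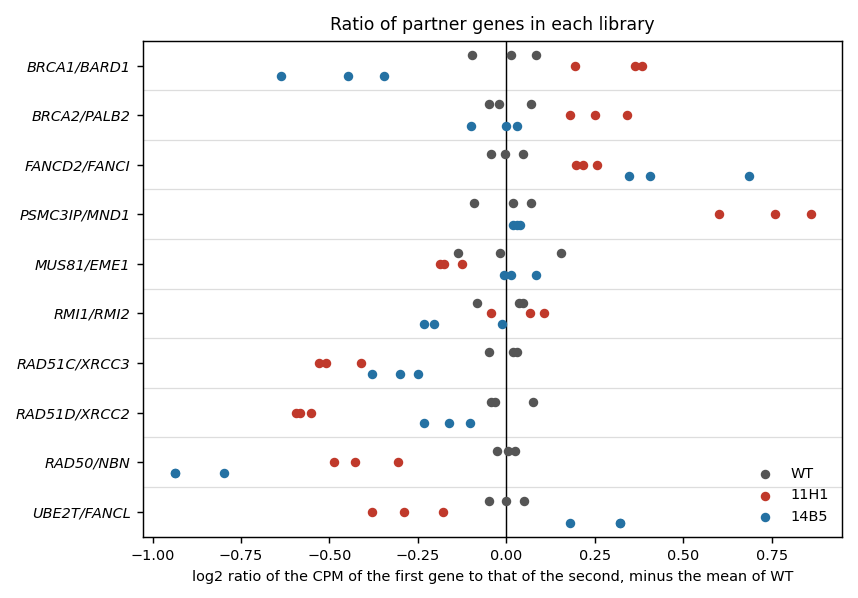
log2 ratio of the CPM of partner genes in each library, minus the mean of WT (grey), for 11H1 (red) and 14B5 (blue). *RAD50*/*NBN*, *RAD51C*/*XRCC3* and *RAD51D*/*XRCC2* lie to the left in both clones, *FANCD2*/*FANCI* to the right, and *BRCA1*/*BARD1* and *UBE2T*/*FANCL* on opposite sides; 2 points of 14B5 coincide for *RAD50*/*NBN* and for *UBE2T*/*FANCL*.

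The change of each gene was also set beside that of the genes that start within 5 Mb of it (GENCODE v29, GRCh38), since a clone can differ from its parental line over a chromosome segment. The gene was above the median of its neighbours for 39 of 43 in 11H1 and 41 of 43 in 14B5, and the median difference was 0.34 and 0.29. A few neighbourhoods had moved. *RAD50* lay among genes with a median of −0.46 in 11H1 and −0.36 in 14B5: 39 and 36 of its 54 neighbours were lower past the threshold. In 11H1 *RAD50* was 0.11 above that median, and in 14B5 it was 0.34 below it. The neighbours of *FANCI* had medians of −0.26 and −0.32, and those of *BLM* of −0.31 and −0.27, in windows of chromosome 15 that overlap, and both genes were above them in each clone. In 11H1 the neighbours of *FANCA* had a median of 0.37, with 32 of 62 higher past the threshold, and in 14B5 of 0.04. In 14B5 the neighbours of *FANCM* had a median of 0.26, with 16 of 32 higher, and in 11H1 of −0.09. *FANCA* stayed 0.54 and *FANCM* 0.78 above these medians. In the 2 Mb window *FANCA* was 0.53 above a median of 0.37 in 11H1, and *FANCM* was 0.64 above a median of 0.40 in 14B5. In 11H1 versus 14B5 *FANCM* was at −0.73, with neighbours at −0.39 within 5 Mb and −0.55 within 2 Mb. For *FANCA* these values were 0.59, 0.28 and 0.29. *GEN1*, *XRCC2*, *PSMC3IP* and *POLQ* had neighbours between −0.08 and 0.10 in each clone. Within 2 Mb the medians were −0.44 in 11H1 and −0.46 in 14B5 for *GEN1*, which has 4 genes in that window, −0.15 and −0.12 for *XRCC2*, 0.01 and −0.06 for *PSMC3IP*, and 0.07 and −0.16 for *POLQ*, and each of these 4 genes was above them. DNA copy number was not measured in these libraries, and its part in the results was not tested.

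**Figure D5:**
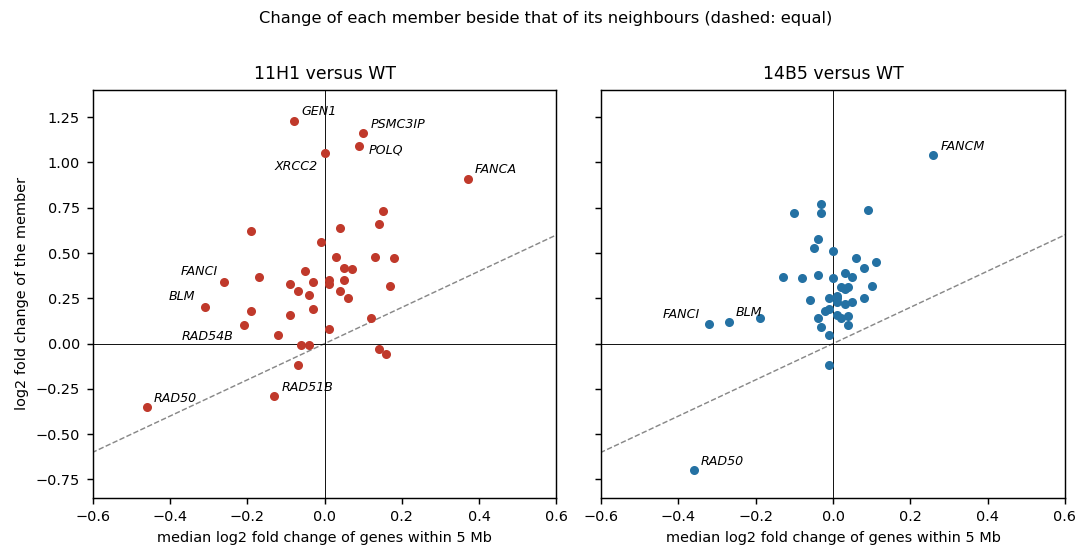
log2FC of each gene versus WT (vertical) against the median log2FC of the genes within 5 Mb (horizontal), in 11H1 (left) and 14B5 (right); the dashed line marks equal values. Most points lie above the line with neighbours near 0, *FANCA* in 11H1 and *FANCM* in 14B5 have neighbours at 0.37 and 0.26, and *RAD50* has neighbours at −0.46 and −0.36.

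Other genes of the pathway were counted in the same way. Of 54 tested, 25 (46.3%) rose and 8 (14.8%) fell in 11H1, where 31.8% and 32.8% of all genes did, with a median log2FC of 0.13. In 14B5, 26 (48.1%) rose and 5 (9.26%) fell, against 24.9% and 28.7% of all genes, with a median of 0.15. With the clones pooled, 15 (27.8%) were higher, against 14.3% of all genes, and the other 39 did not pass the threshold. In 11H1 the largest rises were *EME2*, a partner of MUS81 (1.44), the crosslink nuclease *FAN1* (1.06) and the helicase *ZGRF1* (0.85). *EME2* was at 17.1 to 19.6 CPM in WT, 47.8 to 52.2 in 11H1 and 17.5 to 18.3 in 14B5, so it stood apart in 11H1 only, and *FAN1* had the same pattern (59.2 to 66.4, 123 to 136 and 65.9 to 68.3 CPM). The largest falls were *SLX1B*, a nuclease bound by SLX4 (−1.06), *SHLD1* of the shieldin complex, which limits resection (−0.55), and *SWI5*, a cofactor of strand exchange (−0.38). *SLX1B* has a near-identical copy, *SLX1A* (−0.07, adjusted p = 0.614, edgeR), and reads may be divided between them.

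In 14B5 the largest rises included *USP1*, which removes the ubiquitin from FANCD2 (0.57), and the meiotic recombinase *DMC1* (0.54). The largest falls in 14B5 were the helicase *RECQL5* (−0.36) and the damage signalling genes *MDC1* (−0.33) and *RNF8* (−0.28). *MDC1* rose in 11H1 (0.29, adjusted p = 0.00155, edgeR), so that it was past the threshold in opposite directions. So were *RAD52*, which anneals strands (0.41 in 11H1 and −0.19 in 14B5), and *MAD2L2*, which works with shieldin (−0.28 and 0.30), 3 of the 54 in all (5.56%, against 5.8% of all genes).

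Genes of the cell cycle moved with the repair genes. Of 40 S phase genes that are not among the 43, 27 (67.5%) rose and 4 (10%) fell in 11H1, against 31.8% and 32.8% of all genes. In 14B5, 37 (92.5%) rose and 2 (5%) fell, against 24.9% and 28.7% of all genes. Of 52 G2/M genes tested, 36 (69.2%) rose and 5 (9.62%) fell in 11H1, and 37 (71.2%) rose and 2 (3.85%) fell in 14B5. *PIMREG*, too low in every group to be tested, was at 0.0203 to 0.0972 CPM in WT, 0 to 0.122 in 11H1 and 0 in 14B5. The S phase genes summed to 4850 to 5000 CPM in WT, 5630 to 5660 in 11H1 and 6240 to 6300 in 14B5, and the G2/M genes to 7330 to 7750, 8510 to 8830 and 9330 to 9570 CPM. In 11H1 versus 14B5, 28 of the 40 S phase genes (70%) were lower and 4 (10%) were higher, against 32.1% and 31.6% of all genes. Their median log2FC was −0.23, whereas the repair genes had a median of 0.07. In bulk RNA a change in the share of cells in a phase and a change in RNA per cell cannot be told apart, and the part of the cell cycle in the changes of the repair genes was not tested.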

How the data were processed

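For 9 libraries the authors deposited a table of RSEM expected counts, which RSEM estimates by sharing out ambiguous reads and which are corrected for neither depth nor gene length. Per the labels, the submitters' processing notes name STAR 2.7.9a, Picard, RSEM and the build GRCh38; the annotation release, the RSEM version and the strand setting are not given in the sources used here. The methods describe a stranded mRNA kit read as paired ends, whereas the labels name another kit. The study pooled KO libraries and left 1 out without naming it, so all 6 were used. The 92 spike-in entries were left out.

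Expected counts were rounded and tested with edgeR 4.0.16 in R 4.3.3 (TMM, filterByExpr, quasi-likelihood F test, Benjamini-Hochberg over all genes tested, threshold 0.05), each comparison on its own groups. CPM were computed on TMM-scaled library sizes. Alternatives were DESeq2 1.42.0 size factors and Wald test, limma 3.58.1 voom on unrounded values, no filter, at least 10 counts in every library, 1 fit of 3 groups, the replicate number as a block, and each library left out. Positions and exon lengths came from GENCODE v29, which placed 98.9% to 99.1% of the genes tested. The 10 partner ratios were compared with 2-sided exact permutation tests. A count of 0 allows up to 3 counts, which is 0.0913 CPM in the smallest library; this covers counting error only.

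The 43 genes, the steps and the other lists were chosen with earlier results of these data known. All 43 are named. Values per library are given for the largest change of each step in each clone, the 5 largest differences between the clones (*GEN1*, *SLX4*, *FANCM*, *FANCA* and *BARD1*), genes lower in both clones and pairs with separated ratios, and *MND1*, *RAD51B*, *EME2* and *FAN1* were added after their values were seen. Of the other pathway genes, the 3 largest changes in each direction in each clone are named, apart from 1 gene that is not reported here. *HROB* was not matched by symbol. On simulated counts with 200 changed genes, the edgeR steps recovered 97% of 2-fold and 90% of 1.5-fold changes in 11H1 versus WT (16355 genes, 11 false calls), 99% and 90% in 14B5 versus WT, 98% and 90% in 11H1 versus 14B5, and 87% and 35% in KO versus WT. Far more genes were called in the data, 5296 higher and 5476 lower in 11H1 versus WT. Changes under 1.5-fold, which most of the 43 genes had, were not simulated, and neither was a difference between the clones in KO versus WT. No library was a copy of another: the mean chi-square per gene between libraries of a group ran from 4.43 to 43.5.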

Additional observations from a re-analysis of the deposited data

Results flagged for a closer look

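*FANCI* was at 128 CPM in 14B5 library 1, far below the other 5 KO libraries (174 to 189 CPM) by Dixon's test. This test flags about 1 in 20 groups by chance. It was run on all 43 genes, with the libraries of both clones pooled, and flagged 1. The part of the overlapping *POLG*, low in the same library, was not tested.

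In 23 of the 43 genes the changes of the clones differed, by the direct edgeR test of 11H1 against 14B5. Higher in 11H1 were *GEN1* (log2FC 0.79), *SLX4* (0.77), *FANCA* (0.59), *XRCC2* (0.50), *PSMC3IP* (0.37), *POLQ* (0.36), *RAD50* (0.33), *FIGNL1* (0.29), *EME1* (0.27), *XRCC3* (0.24), *RBBP8* (0.22), *BRCA1* (0.22) and *FANCL* (0.15). Higher in 14B5 were *FANCM* (−0.73), *BARD1* (−0.57), *RMI2* (−0.52), *FANCF* (−0.46), *RAD51B* (−0.44), *UBE2T* (−0.41), *MND1* (−0.34), *RMI1* (−0.33), *RAD51AP1* (−0.30) and *NBN* (−0.15). Of all genes tested, 31.6% were higher and 32.1% were lower in this comparison, and each clone comes from a single cell, so a difference between edited clones and a difference between any clones cannot be told apart.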

How the results depend on the processing

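The counts of genes called stayed within 1.5 times their value under the other tests, scalings, filters and fits. Under the replicate number as a block, 32 genes were higher in 11H1, 29 in 14B5, 22 in both and 19 in KO, against 32, 33, 26 and 27; libraries that share a number correlated between −0.24 and 0.10, so the number does not pair them. In 1 fit of 3 groups 38 genes were higher in KO. With each library left out, the number lower in 11H1 was 1 to 2 (*RAD51B* was lost), the number lower in 14B5 was 1 to 2 (*SLX4* was gained without 14B5 library 2), and the number higher in KO was 16 to 26, lowest without WT library 1. Calls lost in at least 1 setting were 3 of 34 in 11H1 (*PALB2*, *HELQ* and *RAD51B*), 4 of 34 in 14B5 (*RBBP8*, *BRCA2*, *HELQ* and *TOP3A*), 1 of 23 between the clones (*FANCL*) and 12 of 28 in KO (*RBBP8*, *DNA2*, *BRCA1*, *BRCA2*, *RAD51C*, *HELQ*, *FANCA*, *FANCG*, *FANCM*, *BLM*, *TOP3A* and *GEN1*).

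Changes of sign among the 43 genes were confined to uncalled values near 0. In 11H1 versus WT they were *UBE2T* (−0.04 to 0.01 with each library left out) and *RMI1* (−0.06 to 0.04). In 11H1 versus 14B5, with each library left out, they were *BRIP1* (0.00 to 0.05), *RAD54B* (−0.03 to 0.01), *HELQ* (−0.05 to 0.01), *FANCE* (−0.01 to 0.08), *FANCG* (−0.03 to 0.06) and *TOP3A* (0.00 to 0.06), and with at least 10 counts in every library *RAD54B* (0.01) and *HELQ* (0.00). In KO versus WT *RAD51B* ran from −0.11 to 0.02. Within 2 Mb the median of the neighbours in 14B5 turned from 0.04 to −0.01 for *FANCA* and from 0.08 to −0.46 for *GEN1*. The cause of these changes was not tested.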
